A study of Mus musculus with 15 samples.

Results

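The 10 genes described here code for transcription factors that specify midbrain GABA neurons and other brainstem neurons: Gata2, Gata3, Tal1, Sox14, Lhx1, Lhx5, Pou4f1, Pax5, En2 and Tfap2b. They were chosen by symbol from the 35976 genes of the count table, and all 10 were found. RNA was sequenced from nuclei of the ventral tegmental area (VTA) of male mice aged 8 to 12 weeks and heterozygous for DAT-Cre, in which cells that make the dopamine transporter also make Cre recombinase. Every mouse, controls included, received AAV5-DIO-KASH-HA in the VTA 14 days before training; this virus puts an HA tag on the nuclear envelope of Cre-expressing cells only. Tissue of 2 mice was pooled per sample, and nuclei were sorted as HA-positive (DA) or HA-negative (nDA).

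FT DA (n = 4) and FT nDA (n = 4) came from mice trained for 7 days to press a lever for food, with no cocaine. MN DA (n = 3) came from mice that went on to take cocaine intravenously, 1 hour a day: for 5 days each infusion held 0.3 mg/kg, and for 10 days of maintenance it held 1.0 mg/kg. CRV DA (n = 4) came from mice that followed that cocaine schedule and then spent 21 days of abstinence in the home cage. HA-negative nuclei were collected only after food training, so no change of HA-negative nuclei with cocaine could be measured. A sample is named below by its group and replicate number, such as FT DA 4. The question was which neurons, by these lineage genes, fill the HA-negative sort.

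The VTA mixes dopamine neurons with GABA and glutamate neurons, glia and vessels. In the embryonic midbrain and anterior hindbrain, Gata2, Gata3 and Tal1 act as selector genes that give newborn neurons a GABA identity, and some GABA neurons keep the expression of these genes. Sox14, Lhx1 and Lhx5 mark subsets of those neurons, Pou4f1 marks glutamate neurons of several brainstem nuclei, and Pax5 and En2 belong to the territory around the midbrain-hindbrain boundary. Gata2 and Tal1 also act in blood and vessel cells, and Pax5 in B cells, so a count of their RNA does not name a neuron by itself.

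Promoters are shown for Gata2 and Sox14, which had no counts in any MN DA library and were present in every CRV DA library, and for Tal1, a partner of the GATA factors. RefSeq (GRCm38.p6) had windows for 8 of the 10 genes. Each was searched over the 250 bases before the start for the GATA-type words AGATAA and its variant AGATAG, the similar words TGATAA and its variant TGATAG, and for the E-box word CAGATG that TAL1 complexes bind, on both strands. A GATA-type word was found for 2 of the 8, Tal1 and Sox14, and in 26.5% of all 32851 windows. CAGATG was found for none of the 8, and in 14.4% of all windows. Below, capitals mark the match, which is the reverse complement of TGATAG in Sox14 and of AGATAA in Tal1, and the Gata2 window holds none; a match is a description of letters only.
Sox14: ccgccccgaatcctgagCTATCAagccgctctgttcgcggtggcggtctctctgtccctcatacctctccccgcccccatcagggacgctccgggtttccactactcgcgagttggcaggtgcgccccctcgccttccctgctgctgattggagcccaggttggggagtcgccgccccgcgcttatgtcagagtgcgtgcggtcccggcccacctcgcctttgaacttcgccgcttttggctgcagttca
Tal1: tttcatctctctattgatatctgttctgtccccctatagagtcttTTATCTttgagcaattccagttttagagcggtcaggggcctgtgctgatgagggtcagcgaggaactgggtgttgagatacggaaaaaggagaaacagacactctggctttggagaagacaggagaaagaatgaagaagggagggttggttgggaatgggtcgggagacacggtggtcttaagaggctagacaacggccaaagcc
Gata2: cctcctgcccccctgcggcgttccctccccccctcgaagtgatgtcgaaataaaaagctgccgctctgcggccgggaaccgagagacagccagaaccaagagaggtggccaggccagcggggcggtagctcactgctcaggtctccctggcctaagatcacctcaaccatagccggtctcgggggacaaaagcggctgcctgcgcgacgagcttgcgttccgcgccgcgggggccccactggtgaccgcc
The Sox14 window is chr9:99876171-99876420 on the minus strand, with the match 233 to 228 bases before the start. The Tal1 window is chr4:115056176-115056425 on the plus strand, with the match 205 to 200 bases before the start. The Gata2 window is chr6:88193641-88193890 on the plus strand. For Gata2 and Tal1 a further start in RefSeq gave a second window, and neither of those held a match. In the GENCODE annotation of GRCm38 all 10 genes are protein-coding, with Gata2 at chr6:88193891-88207032, Tal1 at chr4:115056426-115071755, Sox14 at chr9:99874106-99876170 and Tfap2b at chr1:19208914-19238576.

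Total counts ran from 25813697 in FT DA 3 to 59046618 in CRV DA 2, and 14841 to 19750 genes had a count in a DA library against 22733 to 23886 in an nDA library. Levels below are in CPM, counts scaled by library size, and a floor of 3 counts per library stood at 0.0518 to 0.108 CPM. The labelled cell types were checked against markers. All 6 dopamine neuron markers were lower in FT nDA, where their sum was 331 to 515 CPM against 6352 to 12207 CPM in FT DA. FT DA also held RNA of other cells: the summed markers of oligodendrocytes were at 14.3% of their FT nDA level, of vessels at 18.8% (5.40% without FT DA 4), of microglia at 29.9% and of astrocytes at 36.9%. GC slopes, the change per percent of transcript GC of a library's log2 CPM relative to the mean of all libraries, were lowest in 4 libraries. They were -0.0378, -0.0225 and -0.0379 in MN DA and -0.0247 in FT nDA 2, against -0.0166 to 0.0206 in the other DA libraries and 0.0211 to 0.0325 in the other nDA libraries.

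In food-trained mice, Tfap2b alone among the 10 genes passed the test between the sorted populations. The other genes were detected in HA-positive libraries too, at 31.6% to 82.9% of the HA-negative mean for 8 genes and at 491% for En2. In FT nDA libraries each gene was present in every replicate. Over all genes tested, 0.599% of values were at or under the floor there, against 20.6% in FT DA. In FT DA libraries Gata2, Gata3, Tal1, Sox14 and En2 were high in 1 or 2 replicates and low or absent in the rest.

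Gata2, a zinc finger selector of GABA fate, stood at 0.328, 0.513, 0 and 5.39 CPM in FT DA 1 to 4 and at 3.92, 2.94, 4.95 and 1.83 CPM in FT nDA 1 to 4. The groups overlapped because FT DA 4 was above every nDA library, while the other 3 DA libraries were below all of them. The log2 fold change, nDA minus DA here and below, was 1.12 (SE 1.46, 95% interval -2.18 to 4.41, edgeR adjusted p 0.725).

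Gata3, a related zinc finger factor that acts with and after Gata2, had the highest group mean per length of the 10 in nDA nuclei. It stood at 17.6, 0, 0.325 and 23.2 CPM in FT DA and at 28.5, 47.1, 21.4 and 33.3 CPM in FT nDA. FT DA 4 was inside the nDA range and FT DA 1 just below it, and FT DA 2 and 3 were at 0 and 9 counts. Its change was 1.65 on the log2 scale (SE 1.42, 95% interval -1.56 to 4.86, edgeR adjusted p 0.560).

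Tal1, the helix-loop-helix selector, stood at 15.4, 0.741, 0 and 1.53 CPM in FT DA and at 11.5, 3.29, 12.2 and 12.1 CPM in FT nDA. FT DA 1 was above every nDA library, and FT nDA 2 was well under the other nDA libraries. On the log2 scale nDA was above DA by 1.13 (SE 1.47, 95% interval -2.18 to 4.45, edgeR adjusted p 0.723). FT DA 1 also had the highest summed blood markers, at 958 CPM against 271 to 526 CPM in the other FT DA libraries. FT nDA libraries held 162 to 343 CPM. Most of the mean sum of 514 CPM in FT DA was hemoglobin RNA, with Hbb-bs at 258 CPM and Hba-a1 at 201 CPM. Of 7 blood genes tested, 5 were fitted as lower in nDA nuclei and 2 as higher, such as Ptprc at 23.6 CPM against 1.39 CPM in FT DA. The part of blood RNA in the Tal1 value was not tested.

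Sox14, an HMG-box factor found in subsets of GABA neurons, stood at 2.59, 0.0854, 0 and 17.7 CPM in FT DA and at 9.92, 3.27, 12.0 and 5.68 CPM in FT nDA. FT DA 4, the library that was high for Gata2, was again above every nDA library. The fitted difference was 0.59 on the log2 scale (SE 1.61, 95% interval -3.05 to 4.24, edgeR adjusted p 0.878). FT DA 4 also had the highest summed vessel markers of the group, at 218 CPM against 15.6 to 27.9 CPM in FT DA 1 to 3 and 286 to 518 CPM in FT nDA. The part of vessel RNA in the Gata2 and Sox14 values was not tested.

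Lhx1 and Lhx5 code for LIM-homeodomain factors that come on in postmitotic midbrain GABA precursors. Lhx1 stood at 15.7, 13.9, 13.2 and 12.9 CPM in FT DA and at 17.0, 11.5, 20.7 and 17.8 CPM in FT nDA. It was the steadiest of the 10 in FT DA, and the lowest library of all 8 was FT nDA 2. Its fitted log2 change was 0.26 (SE 0.36, edgeR adjusted p 0.740), with a 95% interval from -0.55 to 1.06, the narrowest of the 10. Lhx5 stood at 10.1, 5.81, 3.11 and 0.502 CPM in FT DA and at 16.4, 7.10, 16.4 and 10.7 CPM in FT nDA. FT DA 1 was the only DA library above the lowest nDA library, FT nDA 2. The log2 fold change of Lhx5 was 1.37 (SE 0.83, 95% interval -0.52 to 3.25, edgeR adjusted p 0.377).

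Pou4f1, a POU-homeodomain factor of glutamate neurons in the red nucleus and habenula, stood at 12.4, 3.02, 0 and 7.00 CPM in FT DA and at 3.92, 15.7, 8.28 and 6.49 CPM in FT nDA. Here FT nDA 2 was the highest library and the groups overlapped widely. On the log2 scale the change was 0.61 (SE 1.31, 95% interval -2.34 to 3.56, edgeR adjusted p 0.842).

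Pax5, a paired-box factor of the midbrain-hindbrain boundary, stood at 0.898, 2.45, 11.7 and 1.51 CPM in FT DA and at 10.0, 5.21, 11.9 and 13.0 CPM in FT nDA. FT DA 3 alone reached the nDA range. The log2 fold change was 1.26 (SE 0.89, 95% interval -0.76 to 3.28, edgeR adjusted p 0.461), and without FT DA 3 it was 2.59 (SE 0.66, edgeR adjusted p 0.0291). The call for Pax5 thus turned on FT DA 3, the library with its highest DA level.

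En2, an engrailed homeodomain factor of the midbrain and anterior hindbrain that dopamine neurons also use, had the opposite sign. It stood at 0.518, 0, 16.3 and 2.62 CPM in FT DA and at 0.821, 1.19, 0.677 and 1.26 CPM in FT nDA. FT DA 3 and 4 were above every nDA library and FT DA 1 and 2 below every one. The fitted log2 change was -2.31 (SE 1.62, 95% interval -5.97 to 1.35, edgeR adjusted p 0.456), and limma-voom with quality weights gave 0.12. Its paralog En1 fell in nDA nuclei from 116.6 ± 65.6 (SD, n = 4) to 6.12 ± 1.45 CPM (n = 4), a fitted log2 difference of -4.26 (SE 0.41, edgeR adjusted p 0.00158).

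Tfap2b, an AP-2 factor of midbrain and hindbrain neuron subsets, had 0 counts in all 4 FT DA libraries. In FT nDA it stood at 0.390, 3.04, 0.653 and 1.24 CPM, from 19, 146, 28 and 57 counts, so no library overlapped. It was at least 17.1-fold higher in nDA nuclei, with the floor of 3 counts per library in place of 0 (edgeR adjusted p 0.0108, range 0.00101 to 0.181 over 17 alternatives). StringTie is among the tools named for this series, and whether the whole-number counts are reads or estimates from coverage is not given in the sources used here, so the floor and such bounds hold only for read counts. FT nDA 2 held much of the RNA, and without it the bound was 9.79-fold with an edgeR adjusted p of 0.0189. Tfap2b passed the filter on low counts only through the nDA libraries. The call held in 15 of the 17 alternatives and was lost in 2, a fit of all 15 libraries at an adjusted p of 0.0589 and the replicate block at 0.181.

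**Figure D1:**
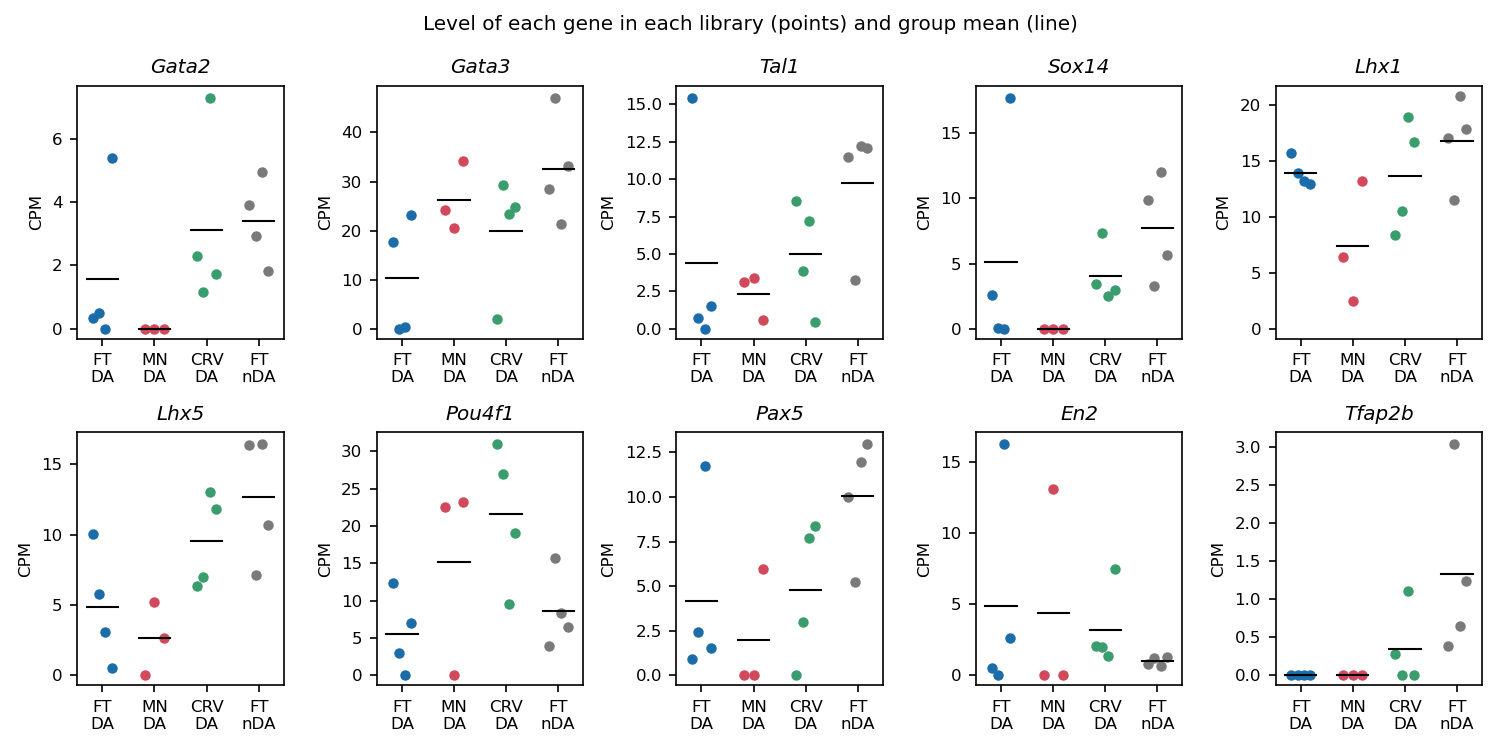
Level of each of the 10 genes in CPM (y axis, linear, own scale per gene) in every library (points), with the group mean as a line; FT DA, CRV DA and FT nDA have 4 libraries and MN DA has 3. FT nDA points are above 0 for each gene, Gata2 and Sox14 are at 0 in all 3 MN DA libraries, and Tfap2b is at 0 in all 4 FT DA libraries.

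Over the whole table, 12.8% of 19786 genes passed between the populations, 9.17% as higher and 3.63% as lower in nDA nuclei. The count among these genes was 1 of 10 higher and 0 of 10 lower, which is near that background. A gap between the groups with nDA higher was found for 1 of the 10 and for 19.7% of all genes. Fitted changes were above 0 for 9 of the 10 against 58.3% of all genes, and their median was 1.13 against 0.21. In bulk nuclei, fewer cells of a type and less RNA per cell cannot be told apart, for these genes and for those below. Each sample pools 2 mice, and whether FT DA and FT nDA samples of one number came from the same mice is not stated, so p-values measure the spread between the deposited samples.

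**Figure D2:**
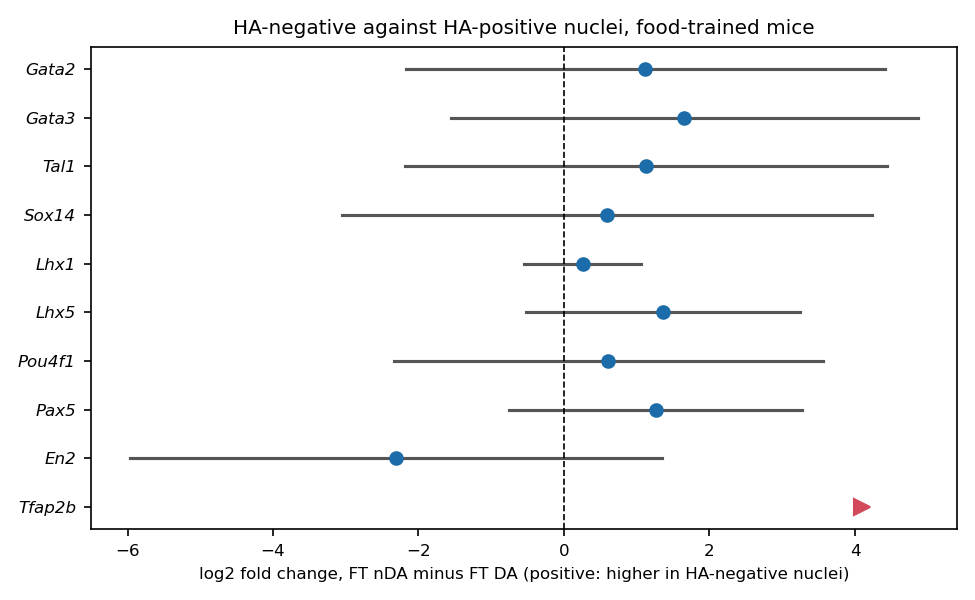
Log2 fold change between FT nDA and FT DA (x axis; positive is higher in HA-negative nuclei) for each gene (y axis), with the edgeR estimate as a point and its 95% interval as a line (n = 4 libraries per group). All 9 lines cross 0; the triangle for Tfap2b marks its lower bound of 17.1-fold on the log2 scale, since FT DA had no counts.

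Summed over the 10 genes, FT DA libraries held 26.5 to 75.5 CPM and FT nDA libraries 100.4 to 109.3 CPM, without overlap. The FT DA mean was 52.7% of the FT nDA mean. That share was above the 14.3% to 36.9% of the summed glial and vessel markers (from 5.40% for vessels without FT DA 4), and under the 194% of 9 pan-neuronal genes and the 2121% of the dopamine markers. These shares are descriptions of sums and were not compared by a test.

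The spread between replicates set the width of these intervals. The coefficient of variation (CV, the SD as a percent of the mean) of the 9 genes detected in FT DA ran from 8.89% for Lhx1 to 167% for Sox14, with a median of 123%. In FT nDA the 10 genes ran from 23.0% for Lhx1 to 89.7% for Tfap2b, with a median of 37.7%. Over all genes tested the medians were 59.4% and 25.8%, and the CV was larger in FT DA for 82.9% of genes. Thus 8 of the 9 genes were more variable in FT DA and Lhx1 was not.

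**Figure D3:**
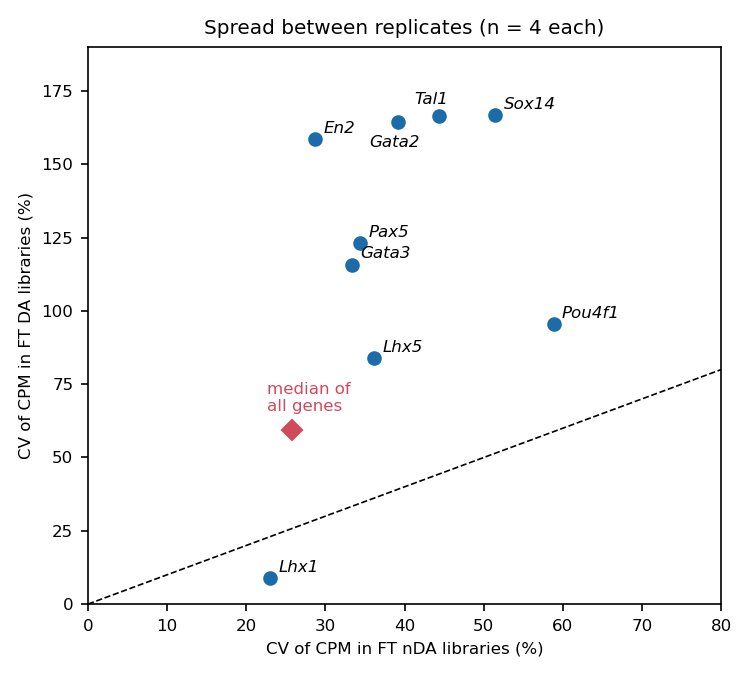
CV of CPM between 4 FT DA libraries (y axis, percent) against the CV between 4 FT nDA libraries (x axis, percent) for the 9 genes detected in FT DA; the diamond is the median of all genes tested and the dashed line marks equal CV. Of the genes, 8 lie above the line, with Sox14 at 167%, and Lhx1 lies below it at 8.89%.

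Values at or under the floor followed the groups. They made up 11 of 40 gene-by-library values in FT DA (27.5%, against 20.6% over all genes tested), 15 of 30 in MN DA (50%, against 20.6%), 3 of 40 in CRV DA (7.5%, against 12.4%) and 0 of 40 in FT nDA (against 0.599%). The genes missing from a library differed between libraries: FT DA 2 was at or under the floor for Gata3, Sox14, En2 and Tfap2b, and FT DA 3 for Gata2, Tal1, Sox14, Pou4f1 and Tfap2b. Apart from Tfap2b, which had no count in any FT DA library, these genes had counts in other libraries of that group, such as 1063 for Gata3 and 813 for Sox14 in FT DA 4.

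**Figure D4:**
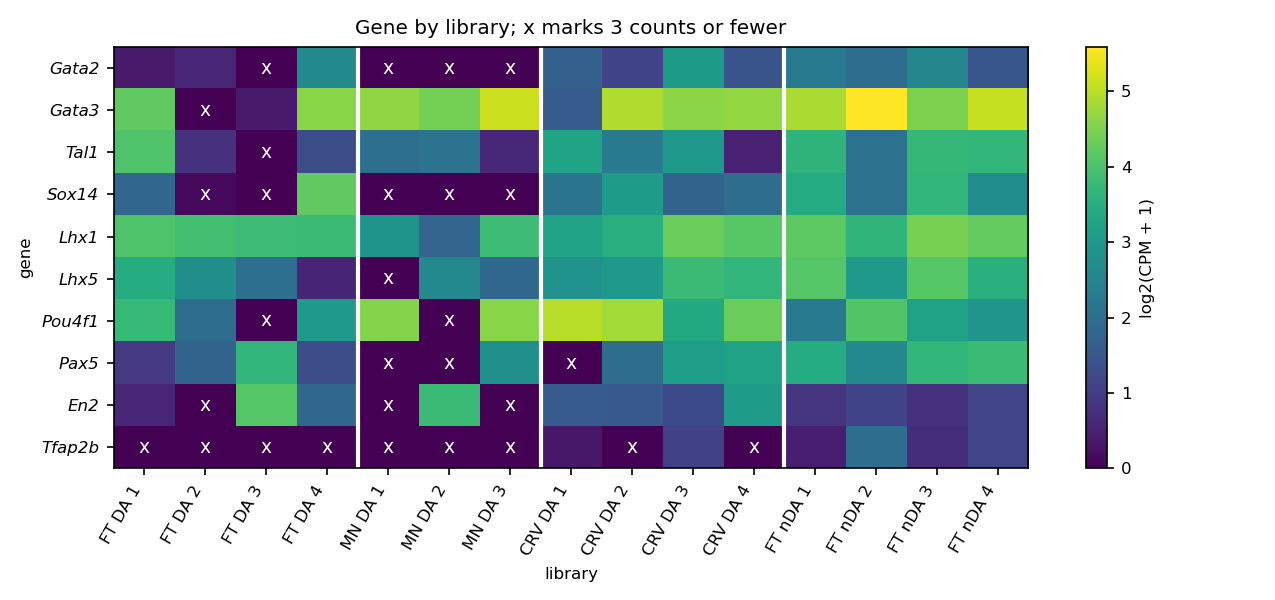
Log2(CPM + 1) (color) of each gene (rows) in each of the 15 libraries (columns, in groups separated by white lines); an x marks 3 counts or fewer. The marks cover 11 of 40 cells in FT DA, 15 of 30 in MN DA, 3 of 40 in CRV DA and none of 40 in FT nDA.

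Across the stages of cocaine intake, no gene of the 10 passed in HA-positive nuclei with edgeR. Gata2 and Sox14 were at 0 counts in all 3 MN DA libraries and present in all 4 CRV DA libraries. The 3 stage comparisons share libraries, so they are not independent of each other, and Tfap2b was left out of their tests by the filter on low counts.

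Gata2 stood at 0, 0 and 0 CPM in MN DA and at 2.30, 1.17, 7.30 and 1.75 CPM in CRV DA. Sox14 stood at 0, 0 and 0 CPM in MN DA and at 3.42, 7.38, 2.51 and 2.97 CPM in CRV DA. For both genes every CRV DA library was above every MN DA library, and the FT DA libraries spanned the range from 0 upward. CRV DA was at least 41.9-fold higher than MN DA for Gata2 (23.3-fold without CRV DA 3) and at least 54.5-fold for Sox14, if the deposited counts are read counts. The edgeR adjusted p was 0.314 for Gata2 and 0.297 for Sox14 (unadjusted 0.00635 and 0.00536), and DESeq2 gave adjusted p of 0.00151 and 0.000462. Of all genes tested, 5.25% were at or under the floor in all MN DA libraries.

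Against FT DA, where Gata2 and Sox14 were high mainly in FT DA 4, the lower level of MN DA had edgeR adjusted p of 0.315 and 0.257 (unadjusted 0.00918 and 0.00474). DESeq2 called both, with adjusted p of 0.00637 and 0.000194. In that comparison 0 of 9 members tested passed with edgeR, where 0.131% of 19060 genes did (25 genes, and 2215 or 11.6% at an unadjusted p under 0.05). The MN DA libraries had the low GC slopes given above, and Gata2 and Sox14 transcripts had a GC content of 58.2% and 55.8%, above that of 92.1% and 84.5% of genes. Lhx5, with the highest GC of the 10 at 59.3%, had 0, 178 and 108 counts in MN DA 1 to 3, and En2, at 56.0%, had 0, 446 and 0 counts; MN DA 1 and 3 had the lowest GC slopes. Tfap2b, with the lowest GC at 46.3%, had 0 counts in MN DA. The part of the GC slope in their zeros was not tested, and in MN DA the slope and the stage cannot be told apart.

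Gata3 did not follow Gata2. It stood at 24.3, 20.5 and 34.1 CPM in MN DA and at 2.08, 29.3, 23.4 and 24.8 CPM in CRV DA. MN DA 1 and 3 were higher than FT DA 4, the highest FT DA library, and CRV DA 1 was far under the other CRV DA libraries. The log2 fold change was 1.36 for MN DA minus FT DA (SE 1.37, edgeR adjusted p 0.847) and -0.41 for CRV DA minus MN DA (SE 1.37, edgeR adjusted p 1.00). Gata3 transcripts had a GC content of 49.7%.

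Tal1 stood at 3.12, 3.37 and 0.563 CPM in MN DA and at 8.54, 3.85, 7.18 and 0.431 CPM in CRV DA. The groups overlapped, with the lowest of the 7 values in CRV DA 4. Lhx1 stood at 6.37, 2.52 and 13.2 CPM in MN DA and at 8.38, 10.5, 18.9 and 16.7 CPM in CRV DA, with MN DA 3 in the CRV DA range. Lhx5 stood at 0, 5.22 and 2.64 CPM in MN DA and at 6.35, 7.00, 13.0 and 11.8 CPM in CRV DA. Lhx5 was the third gene with no overlap between these groups, with 1.85 on the log2 scale for CRV DA minus MN DA (SE 1.51, 95% interval -1.39 to 5.09, edgeR adjusted p 0.866). Such a gap with CRV DA higher was found in 3 of the 9 genes and in 7.68% of all genes tested.

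Pou4f1 was at 22.5, 0 and 23.2 CPM in MN DA and at 31.0, 27.0, 9.52 and 19.0 CPM in CRV DA. MN DA 2 had no count while the other MN DA libraries were above every FT DA and FT nDA library. Its change between CRV DA and FT DA was the most positive of the 9 tested, at 1.94 on the log2 scale (SE 1.46, 95% interval -1.19 to 5.08, edgeR adjusted p 1.00). Pax5 stood at 0, 0 and 5.94 CPM in MN DA and at 0, 3.00, 7.69 and 8.38 CPM in CRV DA. En2 stood at 0, 13.1 and 0 CPM in MN DA and at 2.04, 1.96, 1.38 and 7.49 CPM in CRV DA. In MN DA a single library held all counts of each gene, MN DA 3 for Pax5 and MN DA 2 for En2, and in CRV DA Pax5 was absent from CRV DA 1 only. Tfap2b had 0 counts in MN DA, and 0.285, 0, 1.11 and 0 CPM in CRV DA.

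Between CRV DA and FT DA, edgeR called 0 of the 9 genes and 0 of 19060 (0%), with 819 genes (4.30%) at an unadjusted p under 0.05; DESeq2 called 125 genes and none of the 9, and the lowest unadjusted edgeR p of the 9 was 0.204, for Pou4f1. Between CRV DA and MN DA, edgeR called 0 of the 9 and 34 of 19060 genes (0.178%), with 1890 (9.92%) at an unadjusted p under 0.05. The 95% intervals of the 9 genes were wide: for CRV DA minus FT DA they ran from -1.35 to 1.27 for Lhx1 and from -5.06 to 3.87 for En2. A p that misses the threshold in these fits does not show that the stages had equal levels. Summed over the 10 genes, the libraries held 26.5 to 75.5 CPM in FT DA, 44.7 to 79.7 CPM in MN DA and 64.4 to 93.3 CPM in CRV DA, so these sums overlapped between neighbouring stages.

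FT nDA 2, the HA-negative library with the low GC slope, differed from the other 3 nDA libraries for most of these genes. It was above all 3 for Gata3, Pou4f1 and Tfap2b and below all 3 for Tal1, Sox14, Lhx1, Lhx5 and Pax5, so 8 of 10 were outside. The other nDA libraries were outside their group for 2, 7 and 3 of the 10 genes. Over all genes tested FT nDA 2 was outside for 65.6%, and the others for 36.2%, 51.6% and 46.5%. The direction of FT nDA 2 against its group matched the direction of the MN DA mean against the FT DA mean in 8 of 9 genes with both differences (En2 did not match), and in 64.3% of 19116 genes overall. The cause of this match was not tested.

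Levels between genes were compared as CPM per kilobase of exon. In FT nDA the order was Gata3 at 8.19 ± 2.73 (SD, n = 4), Lhx5 at 4.71 ± 1.70, Lhx1 at 4.12 ± 0.947, Sox14 at 3.74 ± 1.93, Tal1 at 2.23 ± 0.989, Pou4f1 at 1.84 ± 1.08, Pax5 at 1.13 ± 0.389, Gata2 at 0.631 ± 0.247, En2 at 0.279 ± 0.0799 and Tfap2b at 0.210 ± 0.188. The ranges over libraries of all neighbours in this order overlapped, so neighbouring ranks did not differ beyond their spread. In FT DA Lhx1 led at 3.42 ± 0.304, before Gata3 at 2.59 ± 2.99 and Sox14 at 2.47 ± 4.12, and again all neighbours overlapped. In MN DA Gata3 led at 6.62 ± 1.77 (n = 3) above Pou4f1 at 3.26 ± 2.82, with no overlap of ranges, and in CRV DA Gata3 at 5.00 ± 3.05 and Pou4f1 at 4.63 ± 2.03 overlapped.

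Other genes of these pathways were read from lists of partners, relatives and territory factors. Of 8 tested factors that act with these genes in GABA fate, all were fitted as higher in nDA nuclei (median log2 fold change 2.13), and none passed with edgeR, the lowest adjusted p being 0.121 for Sox21. Of all genes tested 58.3% were fitted as higher, with a median of 0.21. Glial markers moved the same way, with 10 of 10 oligodendrocyte genes fitted as higher (median 3.45) and 6 of 8 astrocyte genes (median 1.67). Glia also express Sox2, Nkx2-2 and Nkx6-2 of this list, and the part of glial RNA was not tested. Of 11 partners of LIM and helix-loop-helix factors, 8 were fitted as higher in nDA nuclei (median of the list 0.67), and 0 passed as higher. The 2 that passed were lower in nDA nuclei, where 3.63% of all genes were. Lmo3 fell from 48.2 ± 13.0 to 10.1 ± 4.31 CPM and Lmo4 from 80.2 ± 21.7 to 33.9 ± 5.25 CPM. Of 11 tested paralogs, 2 passed as higher in nDA nuclei (Lyl1 and Tfap2d) and 1 as lower (En1), where 9.17% and 3.63% of all genes did. Lyl1, a relative of Tal1 that is also a blood-lineage factor, was at 0 in FT DA and at 4.82 ± 1.82 CPM in FT nDA. Tfap2d, a paralog of Tfap2b, was at 0 in FT DA and at 1.89 ± 1.58 CPM in FT nDA.

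Of 21 midbrain and diencephalic factors tested, 2 passed as higher in nDA nuclei, a share near the 9.17% of all genes: Pax3 and Barhl2, both at 0 in FT DA and at 1.06 ± 0.496 and 1.27 ± 0.897 CPM in FT nDA. Of 7 hindbrain factors, 1 passed as higher, Gbx2, a gene of the anterior hindbrain, at 0 in FT DA and at 1.29 ± 0.429 CPM in FT nDA. Lyl1, Tfap2d, Pax3, Barhl2 and Gbx2, like Tfap2b, passed the filter on low counts only through the nDA libraries, so these calls support nothing about their lists. Of 8 dopamine lineage factors, 4 were lower in nDA nuclei, where 3.63% of all genes were: En1, Pitx3, Foxa2 and Nr4a2, with log2 fold changes of -4.26, -4.24, -3.37 and -2.61. In the stage comparisons none of these lists held a gene that passed with edgeR.

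Of 13 transmitter genes tested between FT nDA and FT DA, 1 passed, as lower in nDA nuclei. Of all genes tested 12.8% passed, and 3.63% as lower. Gad1, which makes GABA, stood at 75.0 ± 13.8 CPM in FT nDA and at 39.0 ± 17.6 CPM in FT DA (edgeR adjusted p 0.127). Gad2, its paralog, stood at 85.5 ± 5.01 and 61.5 ± 10.6 CPM (edgeR adjusted p 0.157). Both Gad genes were higher in every FT nDA library than in any FT DA library, a gap found for 19.7% of all genes. In the cocaine groups Gad1 stood at 88.7 ± 60.6 CPM in MN DA and 71.1 ± 35.1 CPM in CRV DA, and Gad2 at 122.9 ± 65.3 and 91.7 ± 37.1 CPM, so these HA-positive means were near or above the FT nDA means. Slc32a1, the vesicular GABA transporter, stood at 55.1 ± 23.8 CPM in FT nDA and 93.8 ± 40.2 CPM in FT DA (edgeR adjusted p 0.359). Slc6a5, the glycine transporter of glycine neurons, stood at 19.8 ± 15.9 and 65.3 ± 67.7 CPM (edgeR adjusted p 0.272), and Slc6a4, the serotonin transporter, at 13.2 ± 5.24 and 27.3 ± 3.63 CPM (edgeR adjusted p 0.102). None of these 5 differences passed the threshold. Of the vesicular glutamate transporters, Slc17a6 stood at 392 ± 93.4 CPM in FT nDA and 457 ± 209.9 CPM in FT DA (edgeR adjusted p 0.795), and Slc17a7 at 75.0 ± 48.5 and 20.3 ± 28.0 CPM (edgeR adjusted p 0.385). Slc17a8, the third vesicular glutamate transporter, fell from 38.1 ± 23.9 CPM in FT DA to 7.44 ± 3.36 CPM in FT nDA (edgeR adjusted p 0.0399), with overlap between the groups. The genes whose pattern was most like the mean of the 10, by Pearson r of log2 CPM over 15 libraries, were Slc9a2 at 0.95, Etl4 at 0.94, Pcolce at 0.94, Abi3 at 0.93, Chtf18 at 0.93 and Grrp1 at 0.92. The libraries share groups and depth, so these values are a description only.

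Some of the genes share exons with others, and the library kit does not mark strand, so reads of overlapping exons on opposite strands cannot be told apart. Gata3 overlaps the antisense gene Gm13256 over 155 exonic bases and the same-strand gene 9230102O04Rik over 77, Lhx5 overlaps Gm27199 over 69, and Pax5 overlaps Gm12462 over 125 and 5730488B01Rik over 636. Counts of Gata3, Lhx5 and Pax5 are uncertain to that extent.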

How the data were processed

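Nuclear RNA was sequenced from 15 samples prepared with a low-input cDNA kit, per the labels' protocols; such a kit marks neither strand nor molecules. The authors deposited whole-number counts per gene. Whether these are counted reads or estimates from coverage is not given in the sources used here, and the floor of 3 counts assumes reads. Trim Galore 0.6.7, cutadapt 1.18, STAR 2.7.10a, StringTie 2.1.5 and DESeq2 1.38.3, with mm10 (GRCm38), are named in the submitters' processing notes, without their order, settings or annotation. A second deposited table, named as normalized counts, held the same values in its 10 columns (0 cells differed) and was not used further. Its columns were DA libraries, and FT DA 3 was not among them. Samples were grouped by their titles.

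Counts were tested in R 4.3.3 with edgeR 4.0.16 (filterByExpr, TMM, quasi-likelihood F-test, two-sided, Benjamini-Hochberg adjusted p under 0.05 over all genes tested), in a fit of the 8 food-trained libraries for the populations and of the 11 DA libraries for the stages. SE is the log2 fold change over the root of F, and 95% intervals use edgeR's degrees of freedom. CPM uses TMM factors of all 15 libraries, and where a group had at most 3 counts in every library that floor stood in for 0 and the fold is a bound. Counting error alone is covered by such floors. Alternatives were scaling, filters, DESeq2 1.42.0, limma-voom (limma 3.58.1), other library sets, a replicate block and leaving out replicates. Scripts were tested on simulated data. Lengths, GC and overlaps came from the GENCODE M21 annotation of GRCm38, which matched 26763 symbols and left 9213 unmatched, and promoters from RefSeq. All 10 members are named; of other lists, genes past the threshold by size of change and transmitter genes are named. The members and lists were chosen with earlier results of these data known. Figures were drawn in Python 3.11.15 with matplotlib 3.10.9.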

Additional observations from a re-analysis of the deposited data

Results flagged for a closer look

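In 7 of 29 groups of 4 libraries, 1 library lay farther from the rest than Dixon's 95% value allows; chance flags about 1 in 20 groups of normal values, or 1.45 of 29. The members compared numbered 9 in FT DA, of which 5 had such a library, against 17.2% of all genes tested. In CRV DA it was 1 of 10 against 11.3%, and in FT nDA 1 of 10 against 6.49%. Gata2 in FT DA 4 was at 5.39 CPM against 0 to 0.513 CPM in the other FT DA libraries. Sox14 was at 17.7 CPM in that library against 0 to 2.59 CPM. Tal1 in FT DA 1 was at 15.4 CPM against 0 to 1.53 CPM, and Tal1 in FT nDA 2 was at 3.29 CPM against 11.5 to 12.2 CPM. FT DA 3 held Pax5 at 11.7 CPM against 0.898 to 2.45 CPM, and En2 at 16.3 CPM against 0 to 2.62 CPM. En2 in CRV DA 4 was at 7.49 CPM against 1.38 to 2.04 CPM. Of the 7 libraries and genes, 5 were in FT DA, from FT DA 1, FT DA 3 and FT DA 4.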

How the results depend on the processing

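The count of members past the threshold between the populations was 1, and it was 0 with all 15 libraries in one fit, 0 with the replicate block and 2 (Pax5 and Tfap2b) without FT DA 3, also when FT nDA 2 was left out too, a pair chosen after seeing the data; leaving out single libraries gave 1 to 2. Over all genes 2534 passed, against 3883 with DESeq2, 4266 with limma-voom, 775 with the block and 1900 to 3740 without single libraries. Scaling to pan-neuronal genes moved the median of all genes from 0.21 to 0.80 and raised the higher calls to 3453, with 167 lower (1815 and 719 in the TMM fit). The replicate numbers were not shown to pair the samples: same-number correlations of FT DA and FT nDA were 0.0347, 0.0527, 0.0874 and 0.0415, and 3 of 4 FT DA libraries correlated best with their own number. For MN DA against FT DA, DESeq2 called 2 members, and over all genes 894 passed with DESeq2, 120 with pan-neuronal scaling, 9 with voom, 0 with the block, 0 with a term for the 4 low-GC-slope libraries, 43 without FT DA 3 (FT nDA 2 is not in the stage fits) and 5 to 78 without single libraries (5 without MN DA 1, 7 without MN DA 3, 78 without MN DA 2, 12 without FT DA 4). For CRV DA against FT DA, DESeq2 called 125 genes. For CRV DA against MN DA, DESeq2 called 2 members. Over all genes 732 passed with DESeq2, 159 with pan-neuronal scaling, 15 in the fit of all libraries, 2 with the block and 1 with the low-GC-slope term. Without single libraries 6 to 73 passed (6 without MN DA 1 or CRV DA 3, 7 without MN DA 3, 12 without CRV DA 2, 14 without CRV DA 1, 73 without MN DA 2). The low-GC-slope term was chosen from the slopes, as no label names a batch. Among DA libraries it equals the MN DA stage, so only FT nDA 2 against the other nDA libraries sets its size.

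Signs of log2 fold changes turned as follows, none past the threshold, and the cause was not tested. Between populations, En2 was 0.12 with voom and Pou4f1 -0.32 without FT DA 3 and FT nDA 2. For MN DA against FT DA, voom gave Tal1 0.049 and Pou4f1 -0.63. The low-GC-slope term gave Tal1 0.93, Lhx5 0.12 and Pax5 0.0505, and omission of FT DA 3 gave Pax5 0.28 and En2 2.08. For CRV DA against FT DA, Lhx1 was 0.0035 with pan-neuronal scaling, voom gave Sox14 1.16 and En2 1.41, the block Sox14 2.65, Pax5 -0.67 and En2 0.18, and that omission Tal1 -0.25 and En2 1.63. For CRV DA against MN DA, En2 was 4.20 with voom and 2.44 with the block, and the low-GC-slope term gave Gata3 0.37 and Tal1 -0.76. Without single libraries, MN DA against FT DA ranged from -1.33 to 1.64 for Tal1, -10.54 to 0.28 for Pax5 and -10.79 to 2.08 for En2; CRV DA against FT DA from -0.24 to 0.13 for Lhx1, -0.25 to 1.55 for Pax5, -0.25 to 2.72 for Tal1, -1.46 to 1.63 for En2 and -0.77 to 2.16 for Sox14; CRV DA against MN DA from -0.053 to 0.96 for Pou4f1 and -1.31 to 10.18 for En2. FT DA 3, the shallowest library, had a floor of 0.108 CPM, and lower levels were not detectable there.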
